A study of Mustela putorius furo with 8 samples.

Results

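The genes described here are 7 members of the S100 family of calcium-binding proteins: S100A4, S100A6, S100A9, S100A10, S100A11, S100A14 and S100A16. They were picked by symbol, with earlier results of these data known, and are not the whole family. All 7 were found among the 27912 genes of the count matrices, which name 17 S100 genes in all. They were followed in pancreatic ductal epithelial (PDE) cultures of ferrets, in libraries labelled WT and libraries labelled CFTR KO/KO (CF below), on day 2, 5, 7 and 9 at an air-liquid interface (ALI). There was 1 single-cell RNA library for each genotype and day, 8 in all, and cells of several donors were pooled in each, so a difference between genotypes and a difference between the pooled animals cannot be told apart and no value has a replicate error.

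Both genotypes were cultured in the same way. Whole pancreas of newborn animals 1 to 3 days old was digested with collagenase, duct pieces were picked the day after, and their cells were grown for 10 passages on coated plastic and then seeded on transwell inserts. Per the study's methods, the CFTR KO allele was made by gene targeting in fibroblasts followed by somatic cell nuclear transfer, and CF cells carried it on both chromosomes. The cells were therefore passaged outside the pancreas, with no other tissue around them. Whether all of them were epithelium was not tested.

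S100 proteins are small proteins that bind calcium through a pair of EF-hand motifs and then change shape and bind other proteins. Most act as dimers inside the cell, on the cytoskeleton, on membranes through annexins, or in the cell cycle. Some are also released and signal through receptors such as RAGE (AGER). In epithelia several members are among the most abundant small transcripts, while S100A8 and S100A9 are best known from neutrophils and monocytes and are also induced in stressed or inflamed epithelium.

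In the ferret annotation (assembly ASM1176430v1.1, whose gene table names no chromosome) 5 of the members lie in a run of 12 S100 genes from 6337929 to 6473826. In this run S100A14 spans 6342826 to 6353839, S100A16 spans 6355284 to 6360888, S100A4 spans 6393712 to 6395896, S100A6 spans 6400867 to 6403060 and S100A9 spans 6470773 to 6473826. S100A11 (1809754 to 1816232) and S100A10 (1843441 to 1854264) lie close to each other elsewhere in the table. All 7 are protein coding. The span of S100A14 overlaps that of S100A13 by 7348 bases, S100A6 overlaps S100A5 by 12 bases and S100A10 overlaps LOC106004118 by 1291 bases. The table gives no strand, so the assignment of tags within those overlaps is uncertain. S100A13 held at most 17 unique molecular identifiers (UMIs) in a library, and S100A5 held between 37.9 and 240 UMIs for every 1e6 S100A6 UMIs.

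Retained cells numbered between 1607 and 6224 a library, with between 34735952 and 114585136 UMIs. In the CF library of day 7, 411 of 1607 cells had under 3000 UMIs. CFTR, the targeted gene, was lower in CF at each day but was counted in every CF library, at 2.50 to 11.4 CPM against 6.57 to 29.5 CPM in WT. The study's methods describe such animals as lacking CFTR transcript, and these counts do not match that description. Which exon was altered was not given in the sources used here, and a 3' tag outside it does not check the genotype. CPM are the UMIs of a gene for every 1e6 UMIs of the retained cells, and differences are given as the log2 of CPM plus 1. A UMI marks the 3' end of 1 transcript, so levels of different genes were compared as UMIs and were not divided by gene length. Epithelial genes were high in every library (6 genes summing to between 7871 and 10338 CPM), as was the duct list (5 genes, between 1157 and 3622 CPM, nearly all of it KRT7), whereas the 5 endothelial genes summed to at most 0.259 CPM. In that list CDH5 and CLDN5 had no UMI, VWF had 57 and PECAM1 17 over all libraries. The 11 measured myeloid genes summed to between 6.54 and 25.9 CPM, with C1QA the only one at 0 throughout.

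Transcripts of the S100 members made up 2.15%, 3.21%, 2.99% and 4.85% of all WT UMIs and 2.57%, 3.32%, 3.37% and 4.72% of all CF UMIs at day 2, 5, 7 and 9. The share was lowest at day 2 and highest at day 9 in both genotypes. S100A6 alone gave between 86.8% and 95.3% of these UMIs. It held more UMIs than any other gene in 7 of the 8 libraries and ranked 2 in the remaining one, WT day 2. Without S100A6 the members fell into S100A10 and S100A11 at 719 to 1778 CPM, S100A14 and S100A16 at 166 to 346 CPM, and S100A4 and S100A9, which were the members that varied most between libraries.

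**Figure D1:**
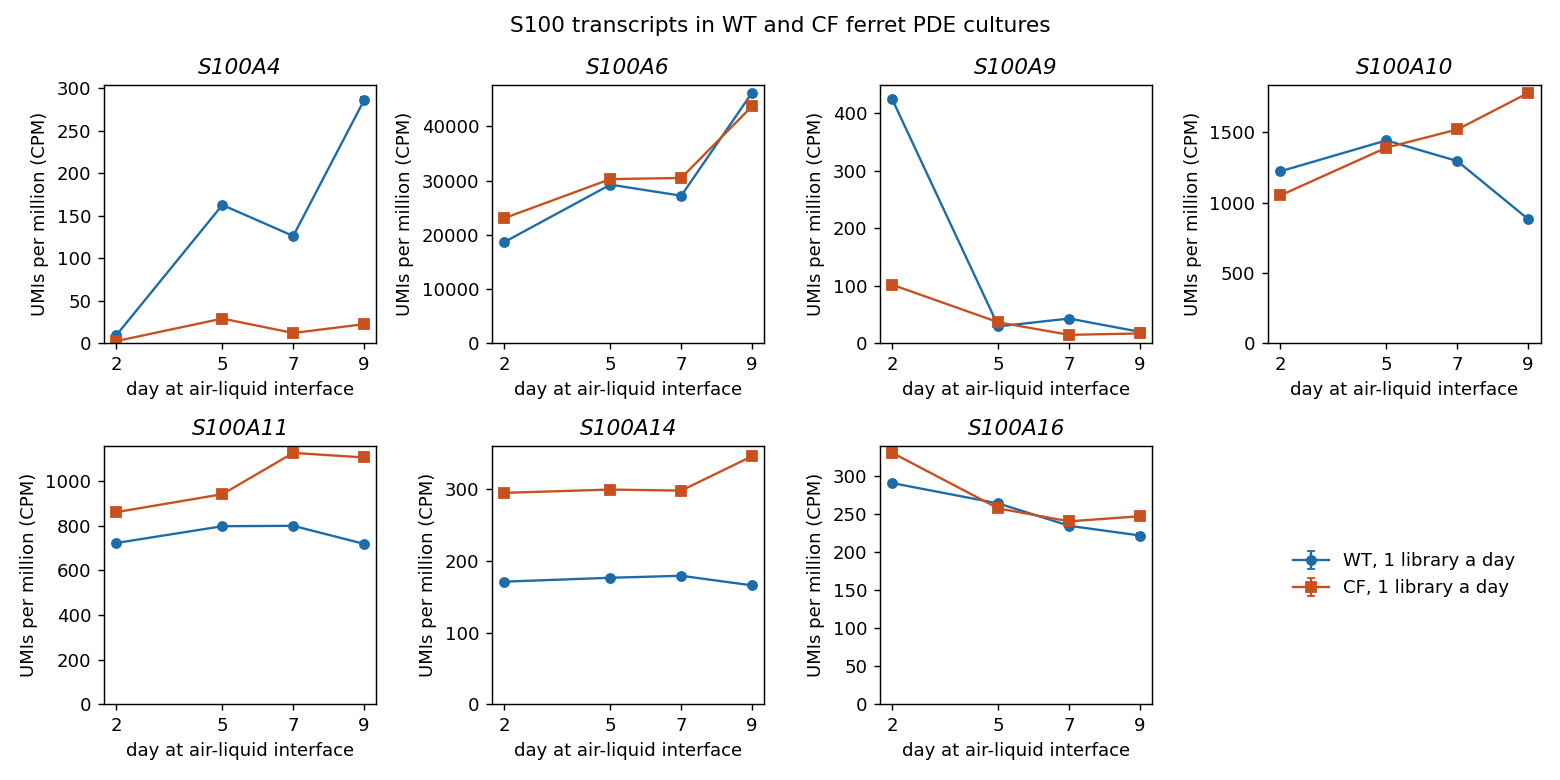
Level of each S100 member (CPM, linear axes from 0) against day at the air-liquid interface, with 1 WT and 1 CF library at each day and bars for the 95% counting interval, mostly smaller than the points. S100A4 reached 286 CPM in WT and stayed at or under 29.3 CPM in CF, S100A9 started at 424 CPM in WT and 102 CPM in CF, S100A14 was higher in CF at every day, and S100A10 ended at 883 CPM in WT and 1778 CPM in CF.

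S100A4, also called metastasin, binds non-muscle myosin and is often used as a marker of motile and mesenchymal cells. It stood at 9.40, 163, 126 and 286 CPM in WT and at 2.77, 29.3, 12.4 and 22.7 CPM in CF at day 2, 5, 7 and 9. From day 5 on, every WT library lay above every CF library. WT exceeded CF 3.40-fold, 5.56-fold, 10.2-fold and 12.6-fold in day order. CF minus WT was -1.47, -2.44, -3.25 and -3.60 on the log2 scale. The 95% intervals were narrow beside these differences (8.85 to 9.98 CPM for WT and 2.45 to 3.11 CPM for CF at day 2, the lowest counts), but here and below they cover counting error only. S100A4 was the only member at least 2-fold lower in CF on all 4 days, a pattern that 1.6% of the 8698 genes of at least 10 CPM in some library shared. With a pseudocount of 5 CPM the day 2 difference was -0.89, short of 2-fold.

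Fibroblast markers were counted beside S100A4. The summed level of the 11 measured fibroblast genes was 17.0, 48.9, 45.2 and 60.6 CPM in WT and 26.4, 38.0, 295 and 297 CPM in CF. VIM, which many cultured cells express, gave most of it, at 13.9, 42.3, 39.0 and 52.9 CPM in WT and 14.8, 35.7, 232 and 261 CPM in CF. The sum was higher in WT at day 5, as S100A4 was, and higher in CF on the other days. PDGFRA, a receptor of fibroblasts, was alone among the 11 in being higher in WT on all 4 days (2.29, 3.33, 4.62 and 5.51 against 0.547, 1.40, 2.13 and 1.82 CPM). At day 7 and 9 all the other measured genes of the list were higher in CF, though DCN and LUM had few UMIs. COL1A1 was at most 0.652 CPM in WT and reached 18.9 CPM in CF. The part of such cells in the S100A4 levels was not tested. CF cluster 11, led by ACTA2, COL1A1 and COL1A2, held 1343 CPM of these markers, 927 CPM of which was VIM, and 17.25 CPM of S100A4. Fewer cells with S100A4 and less S100A4 per cell cannot be told apart in summed libraries. After each cell was thinned to 3000 UMIs, an S100A4 UMI was found in 2.28%, 20.3%, 19.1% and 34.9% of the WT cells, against 0.762%, 4.95%, 2.09% and 4.72% in CF. Unthinned cells gave 7.31%, 31.4%, 33.2% and 51.8% for WT, against 3.60%, 17.7%, 9.02% and 15.0% for CF. At the lowest end, WT cells of clusters with little SOX2 (defined below) held it in 0.112% of thinned cells at day 2 (0.561% unthinned), with a median depth of 13344 UMIs, against 2.65% (8.44% unthinned) of the other WT cells, with a median depth of 16790 UMIs. The CF share at day 2 lay between these. RNA carried over between droplets was not estimated, so its part in these low shares was not tested.

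S100A6, or calcyclin, binds annexins and a partner of the SIAH1 ubiquitin ligase. It was at 18668, 29269.9, 27227 and 46216 CPM in WT and at 23079, 30290, 30499 and 43724 CPM in CF. Both genotypes were lowest at day 2 and highest at day 9, and the genotypes stayed close. CF minus WT was 0.31, 0.05, 0.16 and -0.08 on the log2 scale, so that CF was higher by 1.24-fold at day 2 and lower at day 9. Every retained cell held an S100A6 UMI, so the share of cells adds nothing for this gene.

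S100A9 forms calprotectin with S100A8, a secreted antimicrobial complex. Its levels were 424, 29.7, 43.3 and 20.1 CPM in WT and 102, 36.8, 15.0 and 17.5 CPM in CF. Day 2 stood above all later days in both genotypes, and the WT day 2 library stood above all others. CF minus WT was -2.05 at day 2, 0.30 at day 5, -1.47 at day 7 and -0.20 at day 9. The share of thinned cells with a UMI at day 2 was 50.9% in WT (81.5% unthinned) and 21.2% in CF (64.7% unthinned). Its partner S100A8 was nearly absent: it had 423, 202, 167 and 98 UMIs in the WT libraries and 523, 159, 57 and 60 in the CF libraries, against 48612 S100A9 UMIs in the WT day 2 library. Of the 11 measured myeloid genes, 2 reached 10 CPM. CD14, the monocyte co-receptor for lipopolysaccharide, was at 15.1 CPM at WT day 2 and at most 5.40 CPM elsewhere. CD68, a lysosomal protein of macrophages, was at 20.9 CPM at CF day 2, against 3.88 CPM at WT day 2. CXCR2, a neutrophil chemokine receptor, had 94 of its 103 UMIs at WT day 2. LYZ had 1557 UMIs over all 8 libraries, ITGAM had 342, FCER1G 267 and AIF1 42, while PTPRC, the pan-leukocyte gene, had 4, CSF3R 5 and MPO 2. The part of such cells in the S100A9 levels was not tested.

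Genes of squamous differentiation were counted beside S100A9. The 8 measured of 16 listed summed to 94.5, 54.0, 86.0 and 76.1 CPM in WT and to 56.5, 49.8, 14.8 and 13.2 CPM in CF. Of the 2 that reached 10 CPM, 1, 0, 2 and 2 were at least 2-fold lower in CF at day 2, 5, 7 and 9 (4.25%, 4.69%, 3.66% and 3.92% of all genes) and 0 at least 2-fold higher (4.79%, 2.53%, 4.87% and 3.58%). KRT4, a keratin of stratified epithelium, was at 78.6, 27.9, 65.8 and 52.1 CPM in WT and at 50.03, 20.2, 7.80 and 3.28 CPM in CF. The protease inhibitor PI3 was at 15.4, 25.0, 18.6 and 22.6 CPM in WT and at 5.91, 28.8, 5.99 and 8.42 CPM in CF. S100A9 and PI3 were thus both higher in CF at day 5 and lower in CF on the other days. Across days, however, PI3 was lowest at day 2 in both genotypes, where S100A9 and KRT4 were highest. The sum of the list went from 94.5 CPM at day 2 to 76.1 CPM at day 9 in WT, and S100A9 from 424 to 20.1 CPM. In CF the sum went from 56.5 to 13.2 CPM and S100A9 from 102 to 17.5 CPM. The part of squamous differentiation in the S100A9 levels was not tested.

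S100A10 and S100A11 bind annexin A2 and annexin A1 at membranes. Unlike most members, S100A10 does not bind calcium and stays in the form that binds partners. S100A10 was at 1222, 1442, 1295 and 883 CPM in WT and at 1051, 1390.3, 1519 and 1778 CPM in CF. WT was the higher genotype at day 2 and 5 and CF at day 7 and 9. The CF level was higher at each later day, while the WT level was lowest at day 9. At day 9 CF exceeded WT 2.01-fold (95% counting interval 1.99 to 2.03), or 1.01 on the log2 scale. It was 0.88 with the TMM factors of edgeR and 0.62 when each cell class was given the same weight. S100A11 was at 723, 798, 799.6 and 719 CPM in WT and at 861, 941, 1126 and 1106 CPM in CF. All 4 CF libraries lay above all 4 WT libraries, as was so for 9.53% of the 8698 genes (7.82% the other way). The differences were 0.25, 0.24, 0.49 and 0.62 on the log2 scale in day order. S100A11 and S100A14 were the 2 members without overlap of the genotypes in that direction, and 0 members were so in the other.

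S100A14 and S100A16 lie side by side in the run of S100 genes. S100A14 was at 171, 176, 179 and 166 CPM in WT and at 295, 299.6, 298 and 346 CPM in CF. The genotypes did not overlap, and neither moved far from day to day. CF exceeded WT 1.72-fold (1.69 to 1.76), 1.70-fold, 1.66-fold and 2.09-fold, or by 0.78, 0.76, 0.73 and 1.06 on the log2 scale. Its share of thinned cells was 36.7%, 38.9%, 37.2% and 33.1% in WT and 57.1%, 54.4%, 56.3% and 58.9% in CF. Unthinned cells gave 83.7%, 81.9%, 77.3% and 73.5% for WT and 95.8%, 96.7%, 79.3% and 89.6% for CF, so at day 7 the unthinned shares were close. S100A16 was at 291, 264, 235 and 222 CPM in WT and at 331, 257, 240.4 and 247 CPM in CF. The genotypes overlapped for S100A16, with CF minus WT of 0.18, -0.04, 0.04 and 0.16, and at day 7 the counting interval of the ratio included 1.

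**Figure D2:**
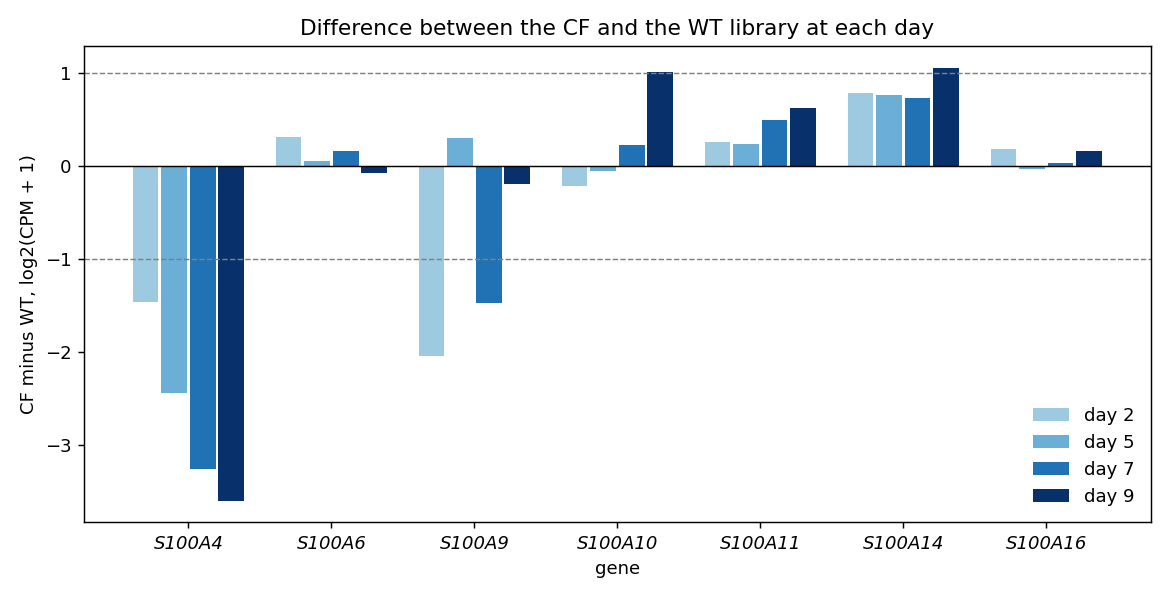
Difference between the CF and the WT library at each day (log2 of CPM plus 1) for each S100 member, with dashed lines at 2-fold in either direction and no error bars because each genotype has 1 library a day. S100A4 lay below the lower line on all 4 days (-1.47 to -3.60, though -0.89 at day 2 with a pseudocount of 5 CPM), S100A9 at day 2 and 7, and S100A10 and S100A14 reached the upper line at day 9 (1.01 and 1.06), though not with TMM factors (0.88 and 0.93).

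Over the members as a group, CF was higher than WT in 17 of 28 pairs of member and day: 4, 4, 5 and 4 of the 7 at day 2, 5, 7 and 9, where 50.4%, 43.1%, 61.9% and 59.5% of all genes were. The median of the 7 differences was 0.18, 0.05, 0.16 and 0.16 on the log2 scale in day order, against 0.00, -0.05, 0.12 and 0.08 over the 8698 genes. At least 2-fold higher in CF on the log2 scale of CPM plus 1 were 0 members at day 2, 5 and 7, where 4.79%, 2.53% and 4.87% of all genes were, and 2 members at day 9 (S100A10 and S100A14), where 3.58% of all genes were. With TMM or DESeq2 factors, or with equal weight for each class, that count at day 9 was 0. At least 2-fold lower in CF were 2 members at day 2 and 2 at day 7 (S100A4 and S100A9), where 4.25% and 3.66% of genes were, and 1 member at day 5 and 1 at day 9 (S100A4), where 4.69% and 3.92% were. By any amount, S100A11 and S100A14 were higher in CF on all 4 days, as were 23.9% of genes, and S100A4 was lower on all 4 days, as were 17.7%. At least 2-fold higher on all 4 days were 0 members and 1.22% of genes. With 7 members, counts of 1 or 2 rest on single genes.

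Across the culture S100A4 and S100A6 were higher late and S100A9 lower in both genotypes. From day 2 to day 9 in WT, S100A4 was higher 30.4-fold (4.79 on the log2 scale) and S100A6 2.48-fold (1.31), while S100A9 was 21.1-fold lower (-4.33). These were the 2 members at least 2-fold higher, against 9.99% of all genes, and the 1 at least 2-fold lower, against 6.07%. In CF, S100A4 was higher 8.21-fold (2.65), S100A6 1.89-fold (0.92) and S100A9 was 5.85-fold lower (-2.48). That left 1 member past 2-fold in each direction, against 6.91% of genes higher and 3.5% lower. S100A10 differed in direction between the genotypes, at -0.47 in WT and 0.76 in CF, while S100A16 was lower at day 9 in both (-0.39 and -0.42). S100A11 was level in WT (-0.01, with a counting interval of the ratio that included 1) and at 0.36 in CF. The median over the members was -0.04 in WT and 0.36 in CF, against 0.11 and 0.14 over all genes.

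On the log2 scale, most of the change of S100A4 and S100A9 in WT fell between day 2 and day 5. In that step S100A4 was higher by 3.98 on the log2 scale and S100A9 was 14.3-fold lower (-3.79), where 5.86% of genes were at least 2-fold higher and 1.53% at least 2-fold lower. No member passed 2-fold from day 5 to day 7 in WT (0.253% of genes higher, 0.701% lower). From day 7 to day 9 S100A4 was higher by 1.17 and S100A9 lower by -1.07 (1.56% of genes higher, 1.25% lower). In CF the first step was also the largest for both, at 3.01 for S100A4 and -1.45 for S100A9 (2.23% of genes higher, 0.644% lower), and both were lower at day 7 than at day 5 (-1.18 and -1.24), as were 0.655% of genes by at least 2-fold, while 0 members and 2.2% of genes were at least 2-fold higher. From day 7 to day 9 in CF 0 members passed 2-fold, against 0.207% of genes higher and 0.172% lower. The library at CF day 7 is the one with the most shallow cells, and its part in that step was not tested. Transcripts of proliferating cells were also lower late. The 11 cell cycle genes summed to 487, 341, 164 and 71.3 CPM in WT and to 209, 127, 73.0 and 66.5 CPM in CF. Of the 10 that passed 10 CPM, 10, 8, 8 and 0 were at least 2-fold lower in CF at day 2, 5, 7 and 9. Of all genes, 4.25%, 4.69%, 3.66% and 3.92% were. Among the 10, CCNA2, CCNB1, CCNB2, CDC20 and MCM2 passed 10 CPM in WT alone and stayed at or under 8.58 CPM in CF. The filter thus favoured a lower CF level for those genes, and the count is a description. The part of the cell cycle genes in the lower S100A9 was not tested.

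The authors' cell table gives each cell a cluster, built separately for WT (41 clusters) and CF (30 clusters), and 1 of 6 class names. No cluster holds cells of both genotypes. The study lists S100A10 among its ductal genes and S100A4 and S100A6 among its centroacinar genes, and the clusters were built from the same transcripts, so levels by class and cluster are descriptions of these groups and not tests. Clusters led by more markers of a class other than their own (6 of 71), and clusters of low depth without a marker of their own class among the leading genes (7 of 71), were not kept under their class name, which left 58. Most of these had no marker of their own class among their leading genes, and neither had any kept centroacinar cluster. Being kept is thus no check of the class name. Centroacinar cells sit where the duct meets the acinus. The study first named its clusters by their correlation with published single-cell references. It described the progenitor class by ALDH1A1, BCL2A1, KLF4, TFF3, TSPAN8, mucin and CEACAM transcripts.

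In WT, S100A4 was a transcript of the centroacinar classes. It stood at 332 CPM in centroacinar and 395 CPM in centroacinar progenitor cells, against 5.63 CPM in ductal, 2.83 CPM in proliferating ductal, 1.18 CPM in proliferating acinar and 0.963 CPM in acinar cells. Counted over all clusters by deposited class, centroacinar cells held 41.4% of the WT S100A4 UMIs and progenitors 56.1%, from 18.2% and 19.4% of the cells, whereas the ductal class held 2.36% from 56.4% of the cells. S100A6 was 52444 and 46176 CPM in those 2 classes and between 12710 and 18832 CPM in the other 4. S100A10 ran the other way, at 738 and 616 CPM against 1289 to 1688 CPM. Centroacinar minus ductal was 5.65 for S100A4, 1.48 for S100A6, -2.27 for S100A9 and -1.07 for S100A10, so that 2 members were at least 2-fold higher (5.97% of all genes) and 2 at least 2-fold lower (7.55%). The remaining 3 differed by -0.08 to -0.14. These sums mix days, and under 50 WT centroacinar cells came from day 2, when S100A9 was high. Within day 5, 7 and 9 S100A9 was higher in centroacinar cells (40.0 against 17.1, 36.8 against 27.9 and 19.4 against 12.3 CPM), by 1.18, 0.39 and 0.62, so the direction of S100A9 turned. Within those days S100A4 differed by 5.60, 3.31 and 4.66, S100A6 by 1.59, 0.96 and 1.08, and S100A10 by -1.21, -0.63 and -1.29.

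The same class names in CF came with other S100 levels. S100A4 was at 8.64 CPM in centroacinar, 44.6 CPM in progenitor and 1.74 CPM in ductal cells of CF (6.95 CPM in ductal cells with every cluster). S100A6 was at 23359.5 CPM in CF centroacinar cells and 23460 CPM in CF ductal cells, and at 42446 CPM in progenitors. S100A10 was higher in centroacinar than in ductal cells of CF, at 1804 and 1088 CPM. Centroacinar minus ductal in CF was thus 1.82 for S100A4 (0.73 with every cluster), -0.01 for S100A6, -1.87 for S100A9 and 0.73 for S100A10. Of the members 1 was at least 2-fold higher (4.47% of all genes) and 1 at least 2-fold lower (2.06%). Within day 2, 5, 7 and 9 S100A6 was at 11623, 11983, 14672 and 40201 CPM in centroacinar cells and at 17314, 34246, 45868 and 35491 CPM in ductal cells, so it was lower in centroacinar cells on 3 days and higher on day 9 (lower on all 4 days with every cluster). S100A4 differed by 1.69, -2.01, -0.57 and 1.52, and by 0.18, 0.69, -1.73 and -1.14 with every cluster, so no direction held across days. S100A10 was higher in centroacinar cells on all 4 days both ways, and S100A9 was lower on all 4 days both ways, from -0.41 at day 9 to -1.86 at day 5 among kept clusters and -0.0039 at day 9 with every cluster.

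Day by day within a class, the S100A4 gap was widest in the centroacinar classes. In progenitors it was at 61.0, 587, 358 and 535 CPM in WT and at 6.47, 87.3, 29.9 and 38.1 CPM in CF. In centroacinar cells at day 5, 7 and 9 it was at 279, 64.3 and 446 CPM in WT and at 0.302, 4.45 and 18.7 CPM in CF. With every cluster the WT value at day 7 was 114 CPM and the CF value at day 5 was 14.2 CPM, since CF cluster 15, with 344 cells of day 5 and S100A4 among its leading genes, was not kept. The leading genes of CF cluster 15 also held PROM1, a centroacinar marker of the study, beside 2 progenitor markers. In ductal cells of kept clusters, where WT held 1.46, 4.77, 5.60 and 16.7 CPM, CF held 0.258, 4.24, 7.06 and 5.88 CPM, and the counting interval of the ratio included 1 at day 5 and 7. With every cluster CF was the higher genotype in ductal cells: it held 2.15, 8.44, 19.1 and 41.2 CPM against 1.49, 4.91, 6.06 and 16.9 CPM in WT, and the interval lay above a ratio of 1 on all 4 days. Kept CF ductal clusters had 88 cells at day 7 and 51 at day 9, of 176 and 284 in the deposited class, and CF cluster 19, led by SPINK1, TFF3 and TFF2, held all the deposited ductal cells that were not kept at those days (88 and 233).

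S100A6 and S100A10 also differed between genotypes by class. S100A6 in ductal cells of CF was 1.04-fold, 1.94-fold, 2.65-fold and 1.28-fold the WT level at day 2, 5, 7 and 9, with the widest gap, 17297 CPM in WT and 45868 CPM in CF, at day 7, where kept CF clusters had 88 cells. With every cluster these ratios were 1.48, 2.02, 3.21 and 2.33. In centroacinar cells S100A6 in CF was 0.226-fold, 0.437-fold and 0.684-fold the WT level at day 5, 7 and 9 (0.421, 0.427 and 0.665 with every cluster). At day 5 these cells held 53062 CPM in WT and 11983 CPM in CF (22333 CPM with every cluster). S100A10 in centroacinar cells of CF was 2.10-fold, 1.74-fold and 3.60-fold the WT level at day 5, 7 and 9, reaching 2055 CPM in CF against 572 CPM in WT at day 9, but in ductal cells it was lower in CF on all 4 days, with a counting interval that included a ratio of 1 at day 9 in kept clusters (0.953-fold) and did not with every cluster (0.776-fold). CF cluster 11, with its fibroblast markers, had the highest S100A10 of any cluster (2400.2 CPM) and held 6.99% of the CF S100A10 UMIs, and its part in the class level was not tested. S100A14 was higher in CF in each class and day compared, by 1.45-fold in centroacinar cells at day 7 up to 2.49-fold in centroacinar cells at day 9. S100A11 was higher in CF too, other than in progenitors at day 5 (0.954-fold).

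**Figure D3:**
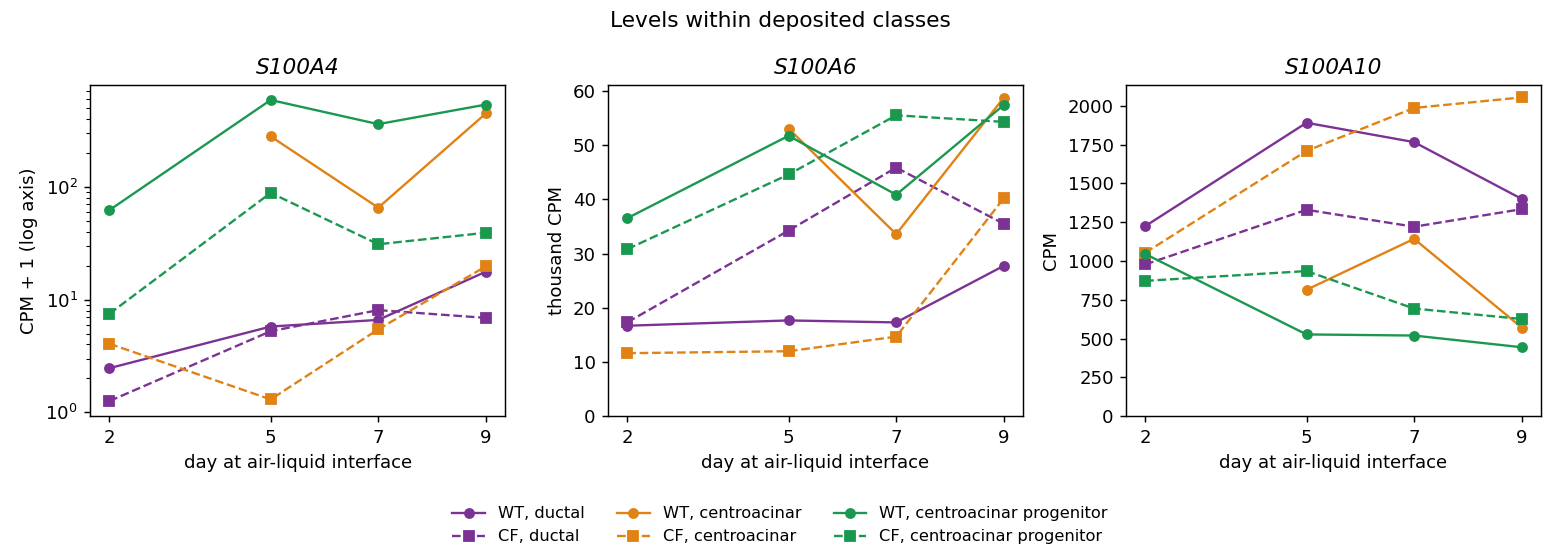
Level of S100A4 (CPM plus 1, log axis), S100A6 (CPM in units of 1000) and S100A10 (CPM) in kept clusters of 3 deposited classes against day at the air-liquid interface, WT as circles and solid lines, CF as squares and dashed lines, for classes of at least 50 cells in a library. WT centroacinar and progenitor cells stood above CF cells of the same class for S100A4 at each day drawn for both, and S100A10 in centroacinar cells at day 9 was 572 CPM in WT and 2055 CPM in CF.

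WT clusters fell into 12 with SOX2, a transcription factor of foregut epithelium, under 10 CPM (SOX2-low) and 29 with at least 10 CPM (SOX2-high), a split known from earlier results of these data. S100A14 was the 1 member whose level in every SOX2-low cluster lay below that in every SOX2-high cluster, as was so for 0.54% of all genes, and 0 members were so in the other direction (0.126%). Over all days it was at 57.1 CPM in SOX2-low and 223 CPM in SOX2-high cells, a 3.91-fold difference, and by day it was at 55.4, 60.8, 48.5 and 60.9 CPM against 188, 274, 248 and 212 CPM. By cluster, SOX2-low WT clusters lay between 40.1 and 73.3 CPM, SOX2-high WT clusters between 87.2 and 519.6 CPM and CF clusters, themselves with SOX2 under 10 CPM, between 179.7 and 419 CPM. The SOX2-low clusters thus overlapped neither of the other sets, whereas every CF value fell inside the SOX2-high range.

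S100A4 and S100A9 were also lower in SOX2-low cells. S100A4 was at 0.340, 5.50, 8.39 and 23.6 CPM in SOX2-low and at 10.7, 296, 189 and 401 CPM in SOX2-high cells. S100A9 was at 41.2, 21.5, 23.1 and 17.3 CPM against 481, 36.7, 53.9 and 21.4 CPM, a gap that was widest at day 2. S100A10 was higher in SOX2-low cells (1646 against 1038 CPM over all days), and S100A11 was nearly equal (737 against 768 CPM). Of the 7 members, 3 were at least 2-fold lower in SOX2-low cells, against 5.75% of all genes, and 0 at least 2-fold higher, against 3.76%. The median was -0.48 over the members and 0.01 over all genes. Among ductal cells alone it was -0.05, and there S100A4 was higher in SOX2-low cells by 1.41 and S100A6 by 0.43.

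The CF values changed place with the WT cells they were set against. Compared with SOX2-high WT cells, S100A4 in CF was lower by -1.64, -3.29, -3.83 and -4.08 in day order. Compared with SOX2-low WT cells it was higher by 1.49, 2.22 and 0.51 at day 2, 5 and 7 and at -0.05 at day 9. The day 2 value rests on 5 S100A4 UMIs in SOX2-low cells, so its size depends on the pseudocount. S100A14 in CF was above SOX2-low cells by 2.39, 2.28, 2.59 and 2.49 and above SOX2-high cells by 0.65, 0.13, 0.26 and 0.71. S100A11 was above both sets at each day, by between 0.15 and 0.65.

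**Figure D4:**
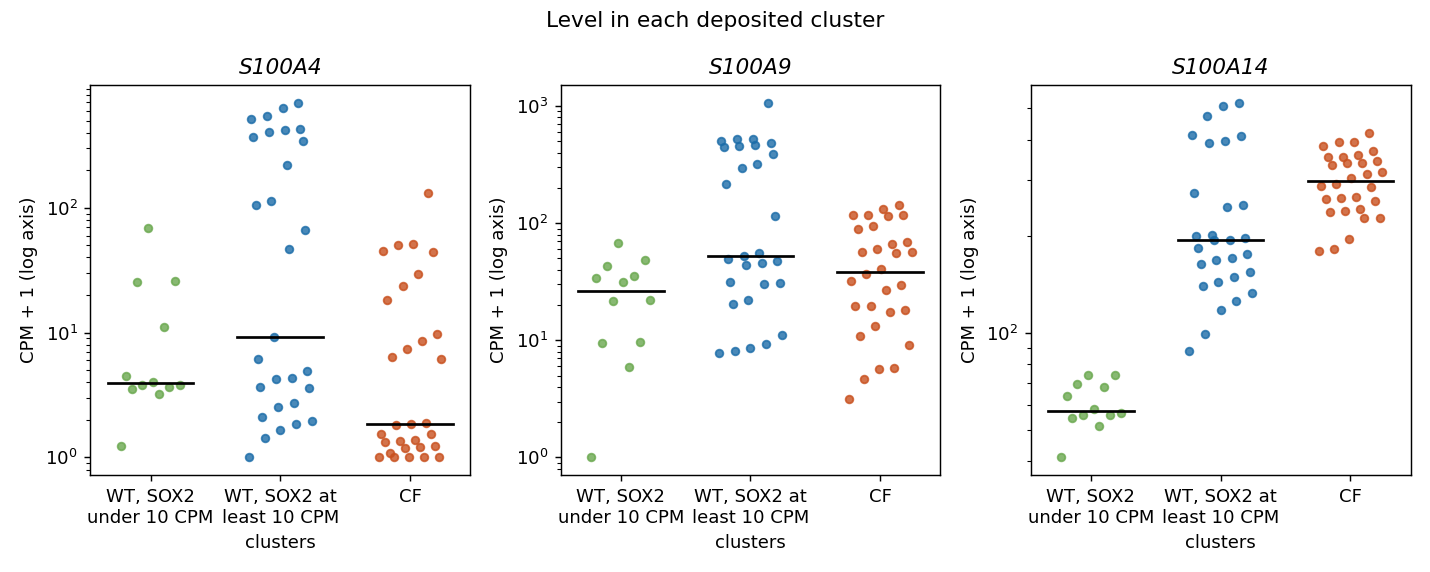
Level of S100A4, S100A9 and S100A14 (CPM plus 1, log axes) in each deposited cluster, 1 point a cluster, for 12 SOX2-low WT, 29 SOX2-high WT and 30 CF clusters, with a line at the median. SOX2-low clusters lay at or under 73.3 CPM of S100A14 and all others at or above 87.2 CPM, while S100A4 at 100 CPM or more was found in 12 SOX2-high, 0 SOX2-low and 1 CF cluster.

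Among single clusters, S100A4 was highest in WT cluster 1 (695 CPM), a progenitor cluster led by CLDN3, CLDN18 and UPK1A, and in WT cluster 3 (628 CPM), a centroacinar cluster led by TNNC1, WFDC2 and PIGR. These held 25.9% and 20.6% of the WT S100A4 UMIs. S100A4 was itself among the 10 leading genes of WT cluster 1. The highest CF cluster was CF cluster 25 (129 CPM), a progenitor cluster led by PI3, MUC5B and SPDEF, where S100A4 was itself among the 10 leading genes, and it held 26.5% of the CF UMIs. In 17 of 30 CF clusters S100A4 was under 1 CPM. S100A6 peaked in CF cluster 7 (88257 CPM), a secretory centroacinar cluster led by WFDC2, TFF1 and TFF2, and in WT cluster 3 (65118 CPM). S100A11 and S100A14 also had their highest CF levels in CF cluster 7, at 1313 and 419 CPM.

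S100A9 was highest in WT cluster 37 (1067 CPM), a ductal cluster of 90 cells that also had the highest CD14 (38.0 CPM) and CXCR2 (7.33 CPM) of any cluster. The 11 measured myeloid genes summed to 48.0 CPM there, less than in WT cluster 40 (76.4 CPM) and WT cluster 17 (54.6 CPM). CD14 was also among the leading genes of the ductal WT clusters 9 and 15. Of the 19 clusters at 100 CPM of S100A9 or more, 13 were SOX2-high WT and 6 were CF, of which WT clusters 24 and 32 drew 2.88% and 8.28% of their cells from day 2 and the others between 71.9% and 100%. In CF the highest was CF cluster 22 (143 CPM), followed by CF cluster 6 (132 CPM), where S100A9 was a leading gene. S100A10 was highest in CF cluster 11 (2400.2 CPM) and WT cluster 34 (2291 CPM, ductal and SOX2-low) and lowest in WT cluster 16 (258 CPM, centroacinar). S100A16 was highest in progenitor clusters of both genotypes, CF cluster 4 (489 CPM) and WT cluster 13 (456 CPM). The lowest S100A6, S100A11 and S100A16 were all in CF cluster 27, 1 of the low-depth clusters.

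Over the 68 clusters of at least 50 cells (39 WT and 29 CF), S100A4 and S100A6 had the most similar levels of any pair of members (Pearson r of log2 levels 0.79, with 0.85 within WT and 0.82 within CF). S100A10 ran against both in WT (r of -0.83 with S100A4 and -0.62 with S100A6) but not in CF (-0.07 and 0.01). S100A10 and S100A11 had an r of 0.55 (0.35 in WT, 0.81 in CF), and S100A9 and S100A16 an r of 0.58. Clusters share libraries and depth, so these are descriptions over clusters and have no p-value.

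The relation of S100A4 to S100A6 differed in height between the cluster sets. Among clusters with at least 30000 CPM of S100A6, a limit chosen after the values had been seen, the 13 SOX2-high clusters held 45.7 to 695 CPM of S100A4 (median 404), the 3 SOX2-low clusters 10.1 to 67.4 CPM and the 11 CF clusters 5.15 to 129 CPM (median 28.6). Per 1000 S100A6 UMIs the medians were 8.56, 0.450 and 0.504 S100A4 UMIs. High S100A6 thus came with high S100A4 in SOX2-high WT cells and with much less of it in the other sets.

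**Figure D5:**
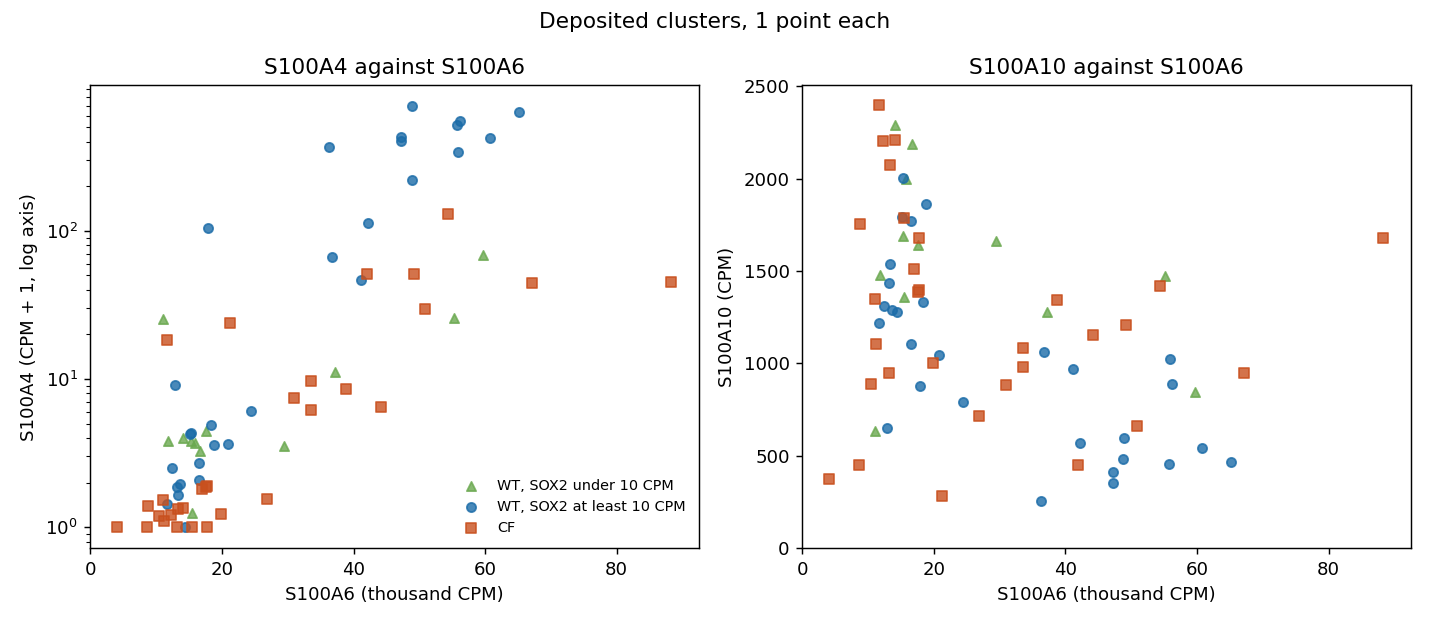
S100A4 (CPM plus 1, log axis, left) and S100A10 (CPM, right) against S100A6 (CPM in units of 1000) in each deposited cluster, as triangles for SOX2-low WT, circles for SOX2-high WT and squares for CF clusters. Past 30000 CPM of S100A6 the median S100A4 was 404 CPM in SOX2-high WT and 28.6 CPM in CF clusters, and S100A10 ran against S100A6 in WT (r of -0.62) but not in CF (0.01).

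The genes whose level over the 68 clusters was most like that of a member were found among 6180 genes of at least 50 CPM in some cluster. For S100A4 they were ATP13A5, a P5-type ATPase, the transmembrane mucin MUC13 and LOC101690256 (r of 0.93, 0.93 and 0.92), with at least 0.82 within each genotype. S100A6 was matched by LOC101679955, the recycling endosome GTPase RAB11A and LOC101669993 (0.92, 0.90 and 0.90), S100A9 by the mitochondrial superoxide dismutase SOD2, LOC101684072 and the trehalase TREH (0.81, 0.81 and 0.80), and S100A10 by the actin nucleation subunit ARPC2, YWHAB and TMEM167A (0.84, 0.83 and 0.83). With S100A9, the r within WT and within CF was 0.92 and 0.57 for SOD2. It was 0.75 and 0.93 for LOC101684072 and 0.81 and 0.78 for TREH. S100A11 was matched by MICOS10, SMIM19 and SF3B6 (0.86, 0.84 and 0.82) and S100A16 by VAMP8, LAMTOR2 and MRPL14 (0.85, 0.83 and 0.83). Nearest to S100A14 were LOC123389273, the desmosomal cadherin DSC3 and LOC123387025 (0.83, 0.78 and 0.76). This rested on WT: within CF the r was 0.18, -0.58 and -0.46.

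Genes of known binding partners and receptors of S100 proteins were compared in the same way. Of 28 listed, 24 were in the matrices and 16 reached 10 CPM. At day 2, 5, 7 and 9, 1, 0, 0 and 0 of the 16 were at least 2-fold higher in CF and 2, 1, 1 and 4 at least 2-fold lower. Of all genes, 4.79%, 2.53%, 4.87% and 3.58% were at least 2-fold higher and 4.25%, 4.69%, 3.66% and 3.92% at least 2-fold lower. The median of the 16 was -0.09, -0.18, -0.06 and -0.02, against 0.00, -0.05, 0.12 and 0.08 over all genes. The annexin ANXA5 was lower in CF throughout, at 94.0, 63.9, 65.3 and 69.4 CPM in WT and 13.05, 19.3, 31.0 and 25.4 CPM in CF (-2.76, -1.68, -1.05 and -1.41). ANXA2, the partner of S100A10 and the most abundant of the list, differed by -0.15, -0.63, -0.09 and -0.14, so at day 9, where S100A10 was 2.01-fold higher in CF, its partner was slightly lower. TRPV6, a calcium channel that S100A10 helps to place in the membrane, was at 0.148, 2.32, 3.24 and 17.2 CPM in WT in day order. In CF it was at 0.401, 1.12, 1.35 and 2.32 CPM, so it passed 10 CPM in the WT day 9 library alone. PLAT, the tissue plasminogen activator that the S100A10 complex binds, was at 3.54, 18.5, 18.8 and 52.8 CPM in WT. In CF it was at 48.1, 18.1, 18.3 and 23.8 CPM, so the genotypes were close at day 5 and 7. The acid-sensing channel subunit ASIC1 was at 22.6 CPM in WT and 8.14 CPM in CF at day 9.

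Of the 10 other S100 genes in the matrices, S100A2 alone was abundant, at 1397, 1789, 1649 and 1251 CPM in WT and 1424, 1445, 2040 and 1992 CPM in CF. None of the 2 that passed 10 CPM, S100A2 and S100A5, differed 2-fold between genotypes at any day. Of all genes, between 2.53% and 4.87% were at least 2-fold higher in CF at a day and between 3.66% and 4.69% at least 2-fold lower. S100A2, like S100A10, was higher in CF at day 9 (0.67 on the log2 scale), and over clusters its level ran with S100A10 (r of 0.69) and against S100A6 (-0.71). S100B had no UMI in any library, and S100G had at most 17.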

How the data were processed

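The deposited files were made by the authors with Cell Ranger 5.0.1 on ferret assembly ASM1176430v1.1 with an improved annotation, and with Seurat in R 4.1.2. Deposited matrices hold whole UMI counts for 27912 genes. The deposited cell table holds, for 32945 retained cells, the library, cluster, class name and percent of mitochondrial UMIs, after the authors' filters. Doublets had been removed by the authors (DoubletFinder) and were not called again. These cells had 32796 distinct barcodes, 148 of them in more than 1 library. Deposited normalized values, scores and pseudotimes were not used.

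UMIs of retained cells were summed for each library, class and cluster and scaled to CPM over all genes. The 24 unassigned mitochondrial placeholder rows stayed in the totals (0.423% to 0.973% of UMIs). Differences are log2 of CPM plus a pseudocount of 1. Genes of at least 10 CPM in 1 library were compared, 8698 in all, including all 7 members. Each genotype and day has 1 library, so groups were not tested and no p-value is given. Intervals are 95%: exact Poisson for a level, exact conditional binomial for a ratio and Clopper-Pearson for a share, and UMI sums of pooled cells carry no variation between animals or cultures. For shares of cells that hold a UMI, each cell was thinned to 3000 UMIs, which left out 39 to 411 shallower cells in a library, and unthinned shares were computed too. Class markers from the study, without its S100 genes, were sought among the 10 leading genes of each cluster. A cluster of enough depth with no marker of any class there was kept.

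Named were the 7 members, up to 4 genes of a list with the largest mean difference between genotypes, the 3 genes most like each member over clusters, and clusters highest or lowest for a member. ANXA2 and markers of other cell types were named after their values were seen. Members, gene lists and the SOX2 split were chosen with earlier results of these data known. Alternatives used TMM factors (edgeR 4.0.16), DESeq2 1.42.0 size factors, a pseudocount of 5 CPM, other cell sets, weights and totals. The interval computations were tested on simulated counts. R 4.3.3, Python 3.11.15, numpy 2.4.6, scipy 1.17.1, pandas 2.3.3 and matplotlib 3.10.9 were used.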

Additional observations from a re-analysis of the deposited data

Results flagged for a closer look

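S100A6 stood out because its direction between genotypes was not the same on all days: CF minus WT was 0.31, 0.05 and 0.16 on the log2 scale at day 2, 5 and 7 and -0.08 at day 9. S100A9 turned likewise, at -2.05, 0.30, -1.47 and -0.20. S100A10 went from -0.22 and -0.05 at day 2 and 5 to 0.23 and 1.01 at day 7 and 9, and S100A16 was at 0.18 at day 2, -0.04 at day 5 and 0.16 at day 9. For 2 members the change from day 2 to day 9 had opposite signs in the genotypes: S100A10, at -0.47 in WT and 0.76 in CF, and S100A14, at -0.04 in WT and 0.23 in CF. The opposite sign of S100A14 did not hold with some other settings: CF became -0.039 with TMM and -0.0045 with DESeq2 factors, and WT became 0.016 as a mean over cells. Small differences turned too: S100A16 at day 5 became 0.026 with DESeq2 factors, and with equal class weight S100A6 became -0.26 at day 5 and 0.13 at day 9 and S100A10 0.26 at day 5. With the settings as given first, the counting intervals of all these differences excluded a ratio of 1, but with 1 library for each genotype and day the differences were not tested against variation between cultures or animals.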

How the results depend on the processing

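Genotypes were compared within days, but no paired test was run, because each genotype and day has 1 library and the days of a genotype are not replicates. For the same reason no library could be left out as a replicate. Of 567 member values recomputed under an alternative, 28 turned, counted only where the counting interval excluded a ratio of 1. The other 539 include values whose interval included 1, and some of these changed sign too. With every cluster, CF minus WT in ductal cells went from -0.14 to 0.68 for S100A4 at day 5. For S100A16 at day 9 it went from 0.036 to -0.18. The totals without S100A6, the sums without low-depth clusters, the counts over days other than day 7, the differences within days, the counts past 2-fold and the every-cluster values by class and day were chosen after seeing the data. In the list below, medians are of the 7 members on the log2 scale, and the cause of a change was not tested.

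CF minus WT at day 2 (0.18) became 0.13 with TMM factors, 0.15 with DESeq2 factors, 0.15 as a mean over cells, 0.15 without mitochondrial and ribosomal protein genes in the total, 0.11 with equal class weight and 0.61 with SOX2-low WT cells alone. Day 5 (0.05) became, in that order, 0.079, 0.11, 0.022, 0.10, 0.10 and 0.73, with 0.015 over all deposited barcodes and 0.044 without low-depth clusters. Day 7 (0.16) became -0.044, 0.0010, 0.097, 0.090, 0.093 and 0.51, with 0.099 over all barcodes, 0.17 over cells of at least 3000 UMIs, 0.17 without S100A6 and 0.18 without low-depth clusters. Day 9 (0.16) became 0.028, 0.053, 0.065, 0.11 and, with SOX2-low WT cells, 0.35. Day 9 minus day 2 in WT (-0.04) became -0.24 with TMM, -0.21 with DESeq2, -0.097 over all barcodes, -0.18 without mitochondrial and ribosomal protein genes and -0.0030 without S100A6. In CF (0.36) it became 0.092, 0.13, 0.31, 0.22 and 0.39, with 0.24 as a mean over cells, 0.38 without low-depth clusters and 0.21 with equal class weight. With SOX2-low WT cells alone, 4 members were higher in CF on all 4 days in place of 2, and 0 lower in place of 1. CF centroacinar minus ductal (0.16) became 0.0011 with every cluster and 0.029 as a mean of the differences within days, which turned the WT median (-0.14) to 0.014, S100A9 in WT to 0.73 and S100A16 in WT to 0.014. With every cluster, CF minus WT in ductal cells became 0.34 at day 2 and 1.24 at day 9 for S100A4 and -0.018 at day 7 for S100A16. SOX2-low minus SOX2-high (-0.48) became -0.053 in ductal cells.

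The 2 members past 2-fold above WT at day 9 became 0 with TMM, DESeq2 or equal class weight and 1 with all barcodes, the mean over cells or no mitochondrial and ribosomal protein genes, and the 2 past 2-fold below WT at day 2 became 1 with a pseudocount of 5 CPM, S100A4 being the one lost. With SOX2-low WT cells the counts at day 2, 5, 7 and 9 became 3, 2, 1 and 1 higher and 0, 0, 0 and 0 lower.

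Among values whose counting interval excluded a ratio of 1, single members turned as follows. With SOX2-low WT cells, CF minus WT became 1.49, 2.22 and 0.51 for S100A4 at day 2, 5 and 7, 1.29 and 0.014 for S100A9 at day 2 and 9, 0.27 for S100A16 at day 5, -0.12 for S100A10 at day 7 and 0.31 for S100A6 at day 9. As a mean over cells, S100A6 became -0.12 at day 5 and -0.097 at day 7, S100A10 became 0.022 at day 5, and S100A14 became 0.016 for WT day 9 minus day 2. With equal class weight, S100A6 became -0.26 at day 5 and 0.13 at day 9, and S100A10 became 0.26 at day 5. At day 5, S100A10 became 0.0097 and S100A16 0.026 with DESeq2 factors, and S100A16 became 0.015 without mitochondrial and ribosomal protein genes. With TMM factors S100A6 became -0.044 at day 7. S100A14 for CF day 9 minus day 2 became -0.039 with TMM and -0.0045 with DESeq2. In ductal cells alone, SOX2-low minus SOX2-high became 1.41 for S100A4 and 0.43 for S100A6. Under TMM the median over all genes shifted by -0.21 (day 7) and -0.13 (day 9) for CF minus WT, and by -0.20 (WT) and -0.27 (CF) for day 9 minus day 2. S100A4 in CF against all WT cells, and S100A11 and S100A14, kept their direction on all 4 days under each scaling. Counts under 1 CPM, as for S100A4 in most CF clusters, limit what the depth can show.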
